A study of Mus musculus with 2 samples.

Results

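The 10 genes described here encode the receptors of the interleukin-6 cytokine family (Il6ra, Il6st, Osmr and Lifr), the kinases Jak1 and Jak2, the transcription factor Stat3, its feedback inhibitor Socs3, and the interleukin-1 receptor Il1r1 with its antagonist Il1rn. They were chosen by name, with earlier results of these data known. They were found by gene identifier among 43346 mouse gene rows, 21474 of which are protein-coding. Liver of adult C57BL/6J mice, 8 weeks old, was profiled by sequencing total RNA of more than 200 nucleotides in 2 libraries, which form 1 group with no other genotype, treatment or time. The labels give each library a biosample of its own but the same donor identifier, record no sex, and do not say whether separate animals were used. The spread between the libraries may therefore be partly or wholly technical, and no test between groups is possible.

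Most cytokines of the interleukin-6 family bind a receptor chain of their own and then share gp130, the product of Il6st. Gp130 and its partners carry JAK kinases, which phosphorylate STAT3. STAT3 then enters the nucleus and switches on target genes, among them Socs3, whose product blocks the receptor and the kinases. In liver this pathway drives the acute phase response and takes part in regeneration after tissue loss. Interleukin-1 acts through Il1r1 and its co-receptor and widens the acute phase response, while the antagonist made from Il1rn occupies the same receptor without signalling.

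Expected counts over mouse genes totalled 83816492 and 71068181 (replicate 1, then replicate 2, the order used throughout where a pair of values is given). Levels are in TPM, which relates each gene's counts to its length and to the total of the library, here rescaled over mouse genes without spike-ins. The tissue label was checked on 8 hepatocyte markers, each above 1 TPM in both libraries, which summed to 12392 and 20202 TPM. All 8 pancreatic acinar markers were over 2-fold higher in replicate 1, with sums of 162 and 39.2 TPM, and the 6 skeletal muscle markers summed to 4.87 and 0.241 TPM. The 6 adrenal cortex markers went the other way, with sums of 0.181 TPM in replicate 1 and 13.9 in replicate 2. These marker lists were chosen with earlier results of these data known. The part of these tissues in the values of the 10 genes was not tested.

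The coding ends and starts that separate the main transcript forms of Lifr, Stat3 and Il1rn are shown first, because the shares of these forms are among the main results. They are read from the GENCODE M21 transcripts on mm10, 5′ to 3′ along the spliced coding sequence, so each span includes introns. For Lifr the span is chr15:7184777-7185074 on the plus strand in Lifr-202 and chr15:7184777-7185613 in Lifr-201, and capitals mark the bases after the last shared exon.
Lifr-202: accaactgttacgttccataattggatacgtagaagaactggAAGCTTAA
Lifr-201: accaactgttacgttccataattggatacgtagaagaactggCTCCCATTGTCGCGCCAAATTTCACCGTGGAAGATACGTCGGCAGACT
Lifr-202 adds 8 bases and stops, while the coding sequence of Lifr-201 goes on. For Stat3 both stretches span chr11:100889516-100889915 on the minus strand. Capitals mark the 50 bases that Stat3-202 skips in Stat3-203, and the stop codon in Stat3-202.
Stat3-203: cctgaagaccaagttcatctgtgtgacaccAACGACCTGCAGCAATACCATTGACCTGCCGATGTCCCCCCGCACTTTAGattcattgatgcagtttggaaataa
Stat3-202: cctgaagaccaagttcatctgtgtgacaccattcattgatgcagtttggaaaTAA
The same last 25 bases are read in another frame in Stat3-203, which does not stop there. For Il1rn the first coding bases are shown, on the plus strand at chr2:24345453-24345543 for Il1rn-201, chr2:24345350-24345543 for Il1rn-202 and chr2:24336983-24345543 for Il1rn-204. Capitals mark the bases before the exons that all 3 share.
Il1rn-201: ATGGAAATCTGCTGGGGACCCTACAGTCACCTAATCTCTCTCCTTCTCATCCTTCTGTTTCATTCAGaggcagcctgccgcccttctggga
Il1rn-202: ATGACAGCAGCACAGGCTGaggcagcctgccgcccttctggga
Il1rn-204: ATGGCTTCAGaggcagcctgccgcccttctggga
The forms thus start with 67, 19 and 10 coding bases of their own and share the last 470.

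Of the 10 genes, 8 reached 1 TPM in both libraries, against 31.0% of all protein-coding genes (6664 of 21474). Osmr and Socs3 did not. The median protein-coding gene had a mean of 0.221 TPM and the upper quartile lay at 1.90 TPM. Lifr, Il6st, Stat3, Jak1 and Il6ra had means above that quartile, and all 10 genes had means above the median. Together the 10 genes took 93596 counts in replicate 1 and 76718 in replicate 2, and no read of theirs was shared with another gene in the quantification, since the posterior SD of each gene's count was 0.

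**Figure D1:**
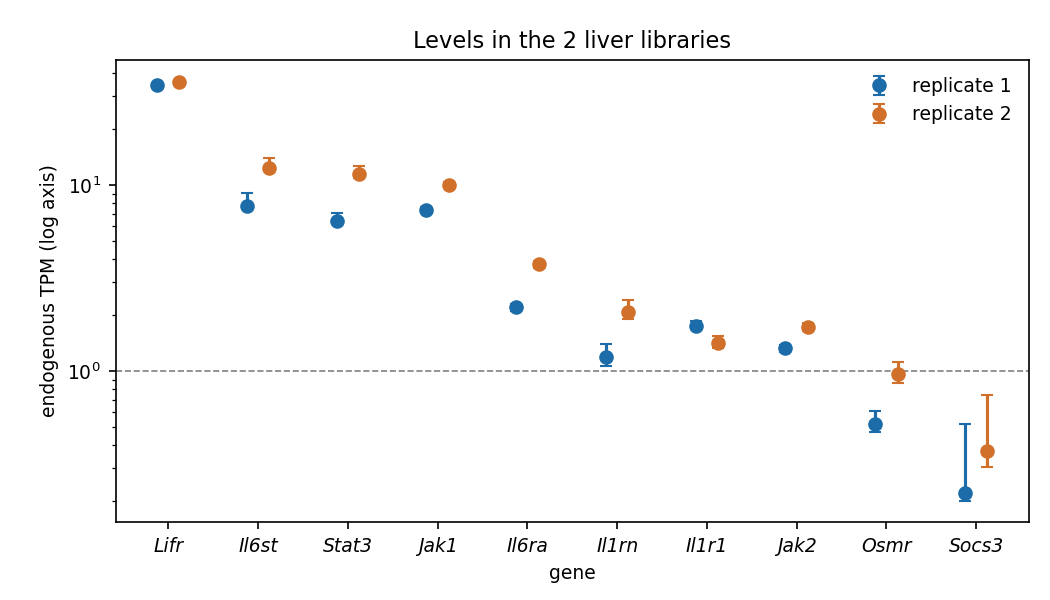
Endogenous TPM (log axis) of each gene in replicate 1 (blue) and replicate 2 (orange), with the bounds of the deposited interval of each estimate as bars; the dashed line is 1 TPM. Lifr lies highest in both libraries, and Osmr and Socs3 lie below 1 TPM in both.

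The receptor chains covered a wide range, with Lifr far above the rest. Lifr (chr15:7090614-7197489, plus strand), the receptor chain for leukemia inhibitory factor and a partner of gp130, had 34.8 TPM in replicate 1 and 35.9 in replicate 2 (35.3 ± 0.832, SD, n = 2). It ranked 490 and 619 among the protein-coding genes and alone held 54.9% and 44.8% of the summed TPM of the 10 genes. Il6st (chr13:112464070-112510086, plus strand), the signalling chain that most of the family shares, had 7.68 and 12.4 TPM (10.1 ± 3.37, SD, n = 2). Lifr was therefore 4.53-fold and 2.89-fold above Il6st, and the values of these genes did not overlap.

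Il6ra (chr3:89864059-89913196, minus strand), which binds interleukin-6 itself, had 2.20 TPM in replicate 1 and 3.76 in replicate 2 (2.98 ± 1.10, SD, n = 2). Il6st stood 3.49-fold and 3.31-fold above it, so the shared chain exceeded the ligand-specific chain by nearly the same factor in each library. Lifr stood 15.8-fold and 9.56-fold above Il6ra. Osmr (chr15:6813577-6874969, minus strand), the chain for oncostatin M, was the lowest receptor, with 0.522 and 0.964 TPM (0.743 ± 0.313, SD, n = 2). The deposited interval of its level ran from 0.469 to 0.612 TPM in replicate 1 and from 0.863 to 1.12 in replicate 2, so in replicate 2 it reached 1 TPM. Osmr and Lifr are neighbours on chromosome 15, 215644 bases apart on opposite strands with 0 protein-coding genes between them, yet Lifr was 66.6-fold and 37.3-fold above Osmr. Fewer cells that express a gene and less of its RNA per cell cannot be told apart in such bulk samples.

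Of the kinases, Jak1 (chr4:101152367-101265282, minus strand), which gp130 uses, had 7.33 and 10.1 TPM (8.70 ± 1.94, SD, n = 2). Jak2 (chr19:29251828-29313080, plus strand), best known downstream of the growth hormone and erythropoietin receptors, had 1.33 and 1.73 TPM (1.53 ± 0.285, SD, n = 2). Jak1 was 5.53-fold above Jak2 in replicate 1 and 5.83-fold in replicate 2. Stat3 (chr11:100885098-100939540, minus strand) had 6.39 and 11.5 TPM (8.94 ± 3.60, SD, n = 2). The ranges of Il6st, Stat3 and Jak1 overlapped, but within each library Il6st lay above Stat3 (1.20-fold and 1.08-fold) and above Jak1. Stat3 lay below Jak1 in replicate 1 and above it in replicate 2, so the order of Stat3 and Jak1 was not separable from the spread. Exons of Stat3 overlap those of Stat5a on the other strand (708 and 704 counts), and exons of Jak1 overlap those of Raver2 (39 and 14 counts). Whether the counting used strand is not given in the sources used here.

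Socs3 (chr11:117966079-117970047, minus strand), the target through which STAT3 limits its own signal, was the lowest of the 10, with 163 counts in replicate 1 and 124 in replicate 2. Its level was 0.221 and 0.372 TPM (0.296 ± 0.107, SD, n = 2), in deposited intervals of 0.200 to 0.519 and 0.305 to 0.741 TPM. Stat3 stood 28.95-fold and 30.9-fold above it. Its 2 libraries were thus not separable by their intervals.

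Of the interleukin-1 genes, Il1r1 (chr1:40225080-40317257, plus strand), the signalling receptor, had 1.76 and 1.42 TPM (1.59 ± 0.241, SD, n = 2). Il1rn (chr2:24336853-24351494, plus strand), the antagonist, had 1.18 and 2.09 TPM (1.64 ± 0.640, SD, n = 2). Il1r1 exceeded Il1rn 1.48-fold in replicate 1 and reached 0.678 of it in replicate 2. The means were close, but the libraries put these genes in opposite orders.

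By mean level the order was Lifr, Il6st, Stat3, Jak1, Il6ra, Il1rn, Il1r1, Jak2, Osmr and Socs3. The values did not overlap between Lifr and Il6st, Jak1 and Il6ra (3.33-fold and 2.68-fold), Il6ra and Il1rn (1.86-fold and 1.80-fold), Jak2 and Osmr (2.54-fold and 1.79-fold), or Osmr and Socs3 (2.36-fold and 2.595-fold). The other 4 neighbouring pairs overlapped, though Il6st was above Stat3 in each library. By these point values the genes fell into steps of level, with Il6st, Stat3 and Jak1 on one step and Il1rn, Il1r1 and Jak2 on another. Some deposited intervals crossed the steps. In replicate 1 that of Socs3 reached 0.519 TPM and that of Osmr began at 0.469. The interval of Il1rn in replicate 2 reached 2.41 TPM, and that of Il6ra in replicate 1 began at 2.11.

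The libraries were next compared gene by gene. TPM was higher in replicate 2 for every gene except Il1r1, but the median log2 ratio of TPM over all genes was itself 0.51. Ratios are therefore given as log2 of replicate 2 over replicate 1 on CPM (counts relative to the library total) scaled with TMM factors, plus 0.5, where the median over all genes was -0.04 and that of the 10 genes 0.04. None of the 10 was over 2-fold apart (0 of 10, with 8 of them reaching the mean of 1 TPM required of the other genes), against 2.36% of all genes that passed (182 of 7702), 1.57% higher in replicate 1 and 0.792% higher in replicate 2. Each ratio compares single libraries and has no replicate check.

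Il1r1 came closest to a 2-fold difference. Its 2883 and 1429 counts gave a log2 ratio of -0.91, with an exact 95% interval for counting error alone of -1.02 to -0.83. Of all genes that passed, 3.03% lay at least as far apart. Il1r1 was lower in replicate 2 on every scale tried, at -0.63 on the spike-in scale and -0.31 on deposited TPM. The pancreatic acinar markers (8 of 8) and the summed skeletal muscle markers (4.87 and 0.241 TPM) lay higher in replicate 1. The summed adrenal cortex markers (0.181 and 13.9 TPM) lay lower there. The part of these tissues in the ratio of Il1r1 was not tested.

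Il1rn had the largest ratio upward on the TMM scale, with 398 and 548 counts and a log2 ratio of 0.51 (counting interval 0.36 to 0.74). On deposited TPM it had 0.82, below Osmr (0.88) and Stat3 (0.84). Lifr had 51460 and 35414 counts and a log2 ratio of -0.45, which became 0.05 on deposited TPM, and -0.46 once the median of all genes on that scale was taken off. The remaining 7 genes had ratios from -0.24 for Socs3 to 0.24 for Stat3. Il6st, Il6ra and Osmr had 0.16, 0.21 and 0.22, and these 3 with Stat3 and Il1rn were above 0 on every scale tried. Jak1 had -0.08 and Jak2 -0.17; both turned to values above 0 on the spike-in scale (0.20 and 0.11) and on deposited TPM (0.46 and 0.38). The counting interval of Socs3, -0.65 to 0.04, included 0, and its ratio on deposited TPM was 0.75.

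**Figure D2:**
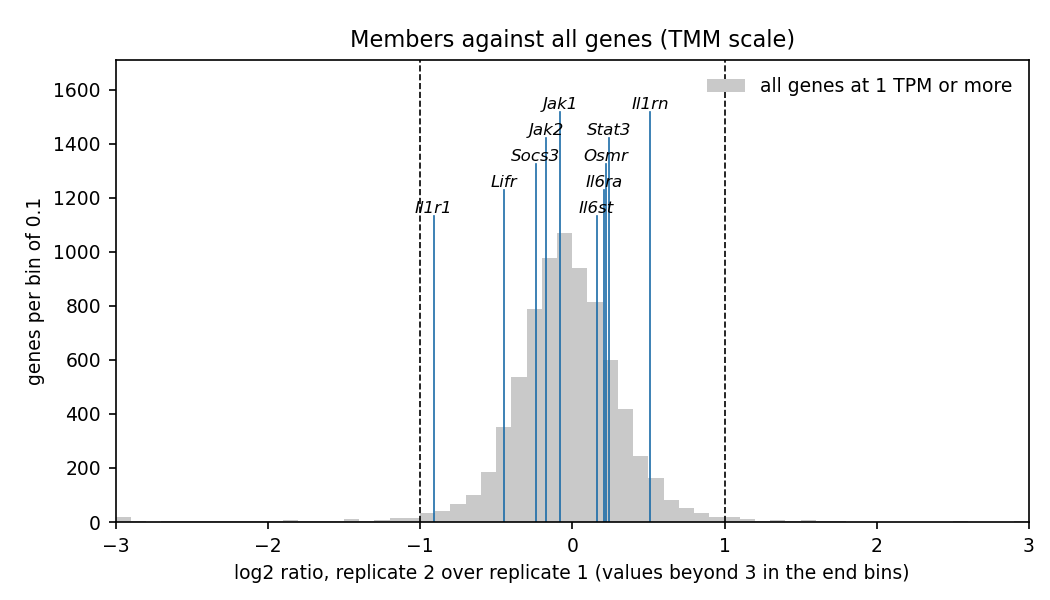
Number of genes per bin of 0.1 in the log2 ratio of replicate 2 over replicate 1 (grey, genes with a mean of 1 TPM or more, values beyond 3 in the end bins), with the ratio of each of the 10 genes as a line and 2-fold differences as dashed lines. Il1r1 lies at -0.91, nearest to a 2-fold difference, and the other 9 lie between -0.45 and 0.51.

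Levels of a gene can hide transcripts that encode different proteins, so the deposited transcript shares were summed by coding sequence. The same transcript led in both libraries for 9 of the 10 genes, the exception being Il1rn. Among protein-coding genes with more than 1 transcript and at least 1 TPM in both libraries, the leading one differed in 8.61% (434 of 5040). Il6ra had 1 quantified transcript, and Jak2 gave all its TPM to Jak2-202 in both libraries, so these genes say nothing on forms. Jak1-201 held 89.6% and 90.4% of the TPM of Jak1.

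Lifr divided its TPM almost evenly between a short and a long coding sequence. Lifr-202 has 2836 nucleotides as quantified and 2844 in GENCODE M21, from which its exons and its 719 residues are taken. It held 53.5% of the gene's TPM in replicate 1 and 47.1% in replicate 2 (50.3% ± 4.58, SD, n = 2). Lifr-201 and Lifr-203 share a coding sequence of 1092 residues and together held 46.5% and 52.9%. In level, the short form had 18.6 and 16.9 TPM and the long form 16.2 and 19.01 TPM, so which was higher differed between the libraries.

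The short and the long Lifr form share their first 2152 coding bases, or 717 codons, and the short form is 373 residues shorter. Its last exon, exon 17 (chr15:7185067-7185343, 277 nucleotides), lies in intron 15 of Lifr-201 and supplies the 8 coding bases in capitals above. In all, 415 bases of Lifr-202, the 277 of exon 17 and 138 of its untranslated exon 2, lie in no other quantified Lifr transcript. Reads on the rest had to be divided among transcripts. Exons 2 and 17 of Lifr-202 both lie within introns of Lifr-201. The libraries are of total RNA, and the part of unspliced RNA in the reads on these exons was not tested. GENCODE M21 holds 8 Lifr transcripts, of which 3 were quantified, so the shares do not cover the others. By counts the short form held 29.9% and 25.3% of the gene and the long form 70.1% and 74.7%, since the long transcripts are longer. As background, mouse serum carries a soluble LIF receptor without the membrane-spanning segment, made from alternatively processed Lifr RNA. The tables measure RNA only, and which protein Lifr-202 yields was not tested.

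**Figure D3:**
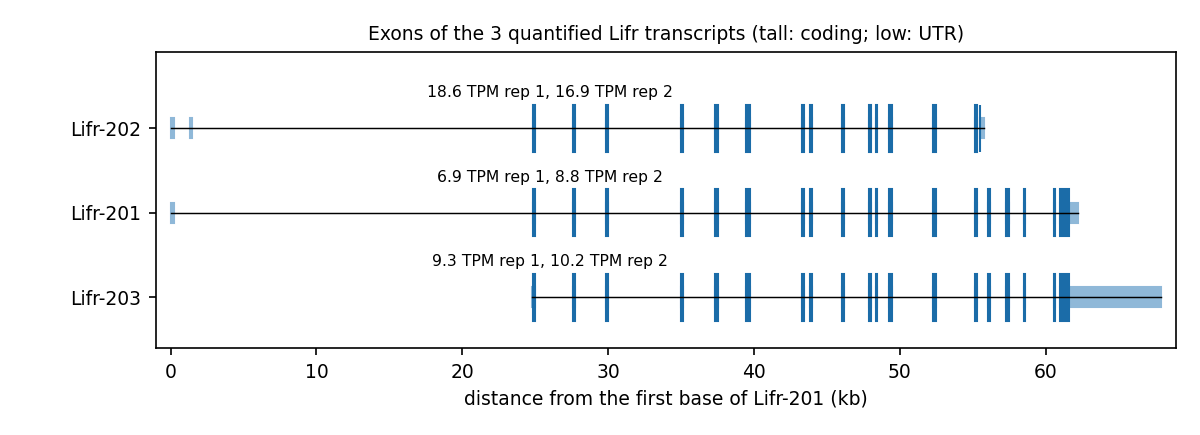
Exons of the 3 quantified Lifr transcripts against the distance in kb from the first base of Lifr-201 (tall boxes coding, low boxes untranslated, lines introns), with the TPM of each in both libraries. Lifr-202 ends in an exon inside an intron of the others and had 18.6 and 16.9 TPM.

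For Stat3 the full-length form led by a steady margin. Stat3-203, the alpha form of 770 residues, held 59.8% and 60.8% of the TPM (60.3% ± 0.750, SD, n = 2). Stat3-202, of 722 residues, skips 50 bases (chr11:100889541-100889590) and so ends in another frame, as printed above. This is the beta form, which keeps the tyrosine that JAKs phosphorylate and lacks the C-terminal transactivation domain. It held 10.97% and 10.3% (10.6% ± 0.495, SD, n = 2), or 0.703 and 1.18 TPM.

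Stat3-201, of 769 residues, differs from Stat3-203 by the loss of 1 codon and held 10.7% and 5.93%. The 10 quantified Stat3 transcripts with no coding sequence held 18.5% and 23.0% of the TPM, but only 2.79% and 2.95% of the counts. Their share of TPM thus comes from few reads on short transcripts.

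Il6st gave 94.5% and 94.2% of its TPM to transcripts of the 917-residue receptor. Il6st-206, of 164 residues, held 5.51% and 5.42%. The 971-residue transcript Osmr-201 held 51.6% and 41.98% of the TPM of Osmr. The other 48.4% and 58.0% lay on 4 retained-intron transcripts, which took 23.0% and 33.6% of the counts. The level of coding Osmr RNA was therefore 0.271 TPM in replicate 1 and 0.402 in replicate 2.

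Socs3-201, the coding transcript, held 100% of the TPM in replicate 1 and 67.3% in replicate 2. The other 32.7% came from 7 counts on Socs3-202, a noncoding transcript of 490 nucleotides. Taken alone, Socs3-201 had 0.221 and 0.251 TPM, closer together than the gene totals of 0.221 and 0.372 TPM.

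Il1r1-201, of 576 residues, held 70.4% and 58.1% of the TPM of Il1r1, and Il1r1-202, of 573 residues, 27.4% and 37.6%. These forms differ at their start only, by 3 residues. Il1r1-201 had 1.24 and 0.824 TPM and Il1r1-202 0.482 and 0.532 TPM, where the median gene had higher TPM in replicate 2. In expected counts both were lower in replicate 2, at 2180 and 930 for Il1r1-201 and 699.8 and 495.6 for Il1r1-202.

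Il1rn was the gene whose leading form differed between the libraries. Il1rn-202, of 162 residues, held 51.2% in replicate 1 and 25.9% in replicate 2. Il1rn-201, of 178 residues, which encodes the secreted antagonist with its signal peptide, held 38.0% and 55.5%. Il1rn-204, an intracellular form of 159 residues, held 4.50% and 5.25%. Like Il1rn-204, Il1rn-202 lacks the coding start of Il1rn-201, as printed above. Where the protein of Il1rn-202 goes was not tested.

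In level, Il1rn-202 had 0.602 and 0.542 TPM, while Il1rn-201 had 0.452 and 1.16 TPM. Il1rn-204 had 0.0502 and 0.111 TPM, and the transcripts with no coding sequence 0.0703 and 0.281 TPM, or 6.29% and 13.4% of the gene. Every group but Il1rn-202 thus had higher TPM in replicate 2, and Il1rn-201 made up most of the difference in TPM. In replicate 1 the deposited intervals of the 2 forms overlapped, at 0.462 to 0.763 TPM for Il1rn-202 and 0.369 to 0.514 for Il1rn-201. By counts Il1rn-201 led in both libraries, with 63.1% and 75.9%, and Il1rn-202, a transcript of 728 nucleotides, took 98.8 and 57.3 counts.

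**Figure D4:**
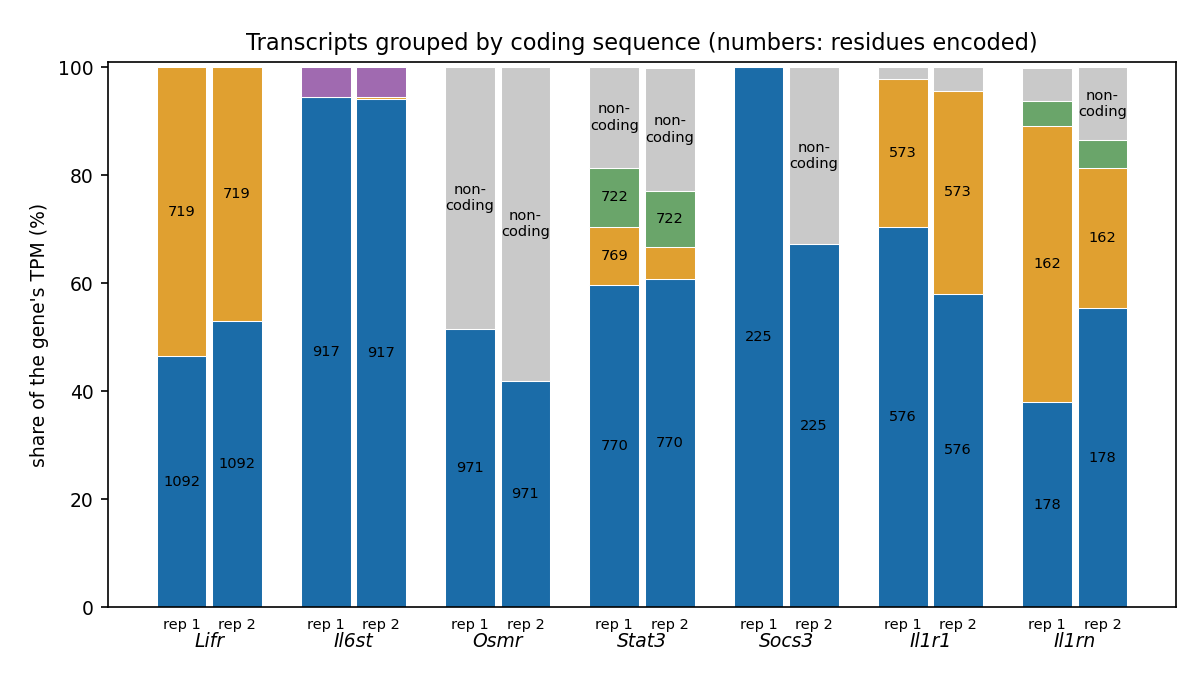
Share of each gene's TPM (%) by coding sequence in replicate 1 and replicate 2; the number in a segment is the residues encoded, and grey segments are transcripts with no coding sequence (segments too thin to label are Il6st-206 in purple, Il1rn-204 in green and Stat3-201 in replicate 2 in orange). The short Lifr form of 719 residues held 53.5% and 47.1%, and the leading Il1rn form differs between the libraries.

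The ligands of the family were scarce. None of the 10 listed reached 1 TPM. Il6 had 0 counts in replicate 1, which allows up to 0.0358 CPM, and 4 counts in replicate 2. Osm had 0 and 10 counts, Lif 1 and 0, Il11 0 and 1, and Il27 0 and 1.

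Clcf1 had 19 and 20 counts and Ebi3 6 and 36. The highest were Ctf1, which encodes cardiotrophin-1, a ligand of the LIF receptor, with 0.281 and 0.583 TPM, and Cntf, ciliary neurotrophic factor, with 0.151 and 0.442 TPM. Of the interleukin-1 side, Il1a had 224 and 223 counts (0.402 and 0.623 TPM) and Il1b 75 and 56. Tnf, another inflammatory cytokine, had 1 and 4 counts. The interleukin-6 family receptors were thus measured in libraries that held few or no counts of most of their listed ligands.

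Of 5 other receptor chains of the family, 1 reached 1 TPM in both libraries. This was Il11ra1, the interleukin-11 receptor chain, with 4.21 and 6.37 TPM, 1.91-fold and 1.70-fold above Il6ra. Il27ra and Cntfr had at most 0.191 TPM. Of 8 other JAK and STAT genes, 4 reached 1 TPM. Stat5b, the growth hormone STAT, had 3.47 and 4.95 TPM, so Stat3 stood 1.84-fold and 2.32-fold above it. Stat6, the interleukin-4 STAT, had 3.01 and 4.36 TPM.

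Of 18 negative regulators and adaptors, 7 reached 1 TPM. The highest were the adaptor Shc1 (4.12 and 6.31 TPM) and the phosphatases Ptpn11 (2.53 and 4.56 TPM), which binds gp130, and Ptpn6 (2.15 and 2.51 TPM). Of 22 genes of interleukin-1 family signalling, 9 did. Il1rap, the co-receptor that Il1r1 needs, had 17.5 and 20.3 TPM and so stood 9.94-fold and 14.4-fold above Il1r1. Nfkbia, the inhibitor of NF-kappaB, had 6.93 and 11.4 TPM and Tollip 3.04 and 5.59. A mean of 1 TPM and 10 counts was met by 1, 5, 10 and 11 genes of these 4 lists. None of them was over 2-fold apart between the libraries, against 2.36% of all genes. Lists this small would hold few or no such genes at that share.

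Genes that STAT3 is known to drive in liver spanned a wide range of levels. Of 37 listed, 27 reached 1 TPM in both libraries, led by the heme scavenger Hpx (623 and 1162 TPM) and the fibrinogen chains Fgg (476 and 577 TPM) and Fga (362 and 506 TPM). Many of them are also made without a cytokine signal. Others of the 37 were far lower, such as Saa1 (2.57 and 2.84 TPM), Saa3 (0.863 and 0.793 TPM) and Fos (0.14 and 0.10 TPM). Of the 28 with a mean of 1 TPM or more, 20 had ratios below 0 and 8 above, where 55.5% of all genes lay below 0, and their median was -0.29 against -0.04.

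Over 2-fold apart were 3 of these 28, against 2.36% of all genes. Orm1 (-1.14) and Orm2 (-1.04), which encode acute phase glycoproteins and are near-identical copies, were higher in replicate 1. Hamp, the iron hormone hepcidin, was higher in replicate 2 (1.08). Lcn2, an iron-binding acute phase protein with a mean below 1 TPM, had 248 and 46 counts and a ratio of -1.70. Stat3 itself had 0.24 and Socs3 -0.24 in the same comparison.

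**Figure D5:**
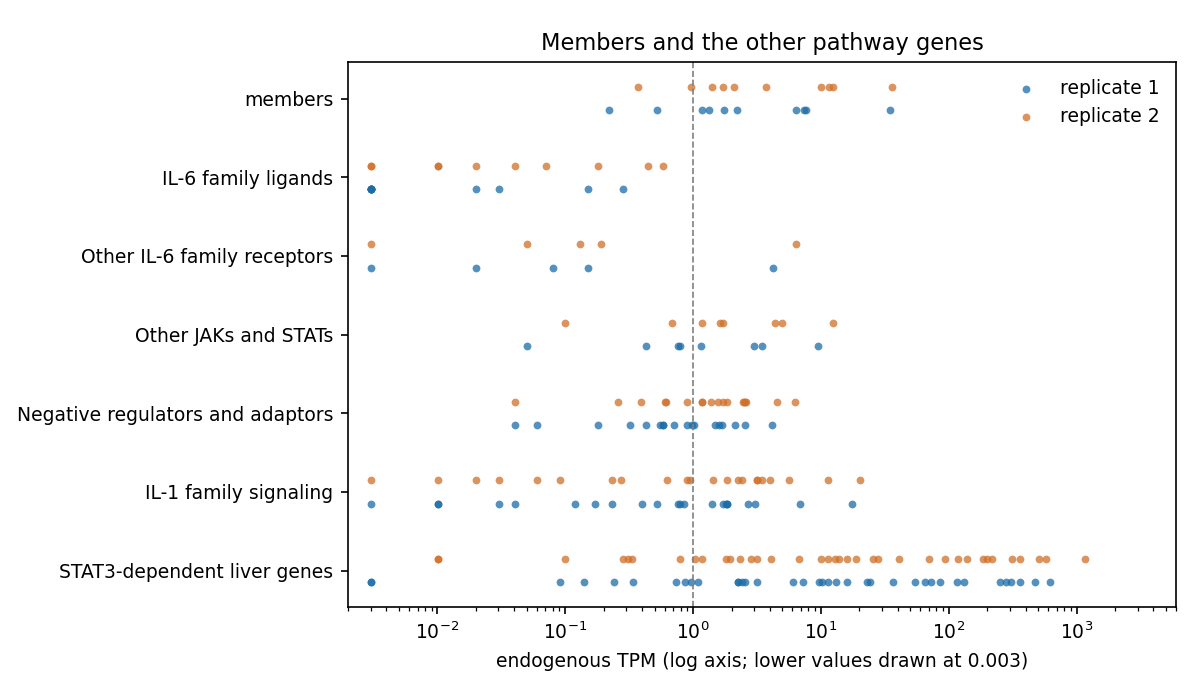
Endogenous TPM (log axis, the lowest values drawn at the left edge) of the 10 genes and of each gene in 6 pathway lists in replicate 1 (blue) and replicate 2 (orange), with 1 TPM dashed. All ligands lie below 1 TPM, and 27 of the 37 STAT3-dependent genes reach it in both libraries.

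Markers of cell types that could carry these genes were looked up in both libraries, and not all were found at 1 TPM. Kupffer cell or macrophage markers, 5 of 8 at 1 TPM or more in both, summed to 49.6 and 55.95 TPM, and sinusoidal endothelial markers, 7 of 8, to 42.6 and 56.4. Stellate cell markers, 5 of 8, summed to 35.4 and 54.3 TPM and cholangiocyte markers, 1 of 6, to 5.06 and 5.16. Neutrophil markers, 0 of 6, summed to 0.562 and 1.19 TPM, T or NK cell markers, 0 of 6, to 0.331 and 0.452, and B lineage markers, 1 of 6, to 1.47 and 10.4. The part of these cells in the ratios of Il1r1 and Il1rn was not tested.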

How the data were processed

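Per the deposited notes, the authors quantified each library on its own, on mm10 with the M4 release of GENCODE. Neither aligner nor quantifier is given in the sources used here. Per the file headers, expected counts are estimated fragments, and FPKM values are scaled to length and library size. Deposited TPM was rescaled to the same total over mouse genes, without spike-ins and transfer RNA rows, and the deposited signal columns that bound each TPM estimate were rescaled with it. Their confidence level is not given in the sources used here. Transcript shares are the deposited percent of each gene's TPM. The deposited posterior SD of a count measures how far shared reads leave it uncertain.

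Symbols, coordinates and coding sequences come from GENCODE M21, which matched 42462 of 43346 identifiers; no promoter or protein sequence is used. All 10 genes matched. Expected counts were rounded for the TMM factors of edgeR 4.0.16 (0.950 and 1.05) and the size factors of DESeq2 1.42.0, in R 4.3.3; no count model was fitted. The pseudocount of 0.5 CPM equals 39.8 and 37.4 counts, so ratios understate differences of low genes such as Socs3. Ratios over all genes used those with a mean of 1 TPM and 10 counts. The ratio step was tested on simulated data. Counting intervals are exact binomial, without the pseudocount, and cover counting error only. Python 3.11.15, numpy 2.4.6, pandas 2.3.3 and scipy 1.17.1 were used.

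All 10 genes are described. Of the 6 pathway lists, the 3 genes highest in TPM are named, and any over 2-fold apart with a mean count of 100. The ligands, Il1a, Il1b and Tnf are named too. Stat5a and Raver2 are named because they overlap members, and Saa1, Saa3 and Fos as examples of lower levels. Some genes that this rule takes are not reported here. The genes, the 6 pathway lists and the 11 cell type lists were chosen with earlier results of these data known.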

Additional observations from a re-analysis of the deposited data

How the results depend on the processing

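No paired analysis was possible because both libraries belong to 1 group. The number of genes at 1 TPM or more in both libraries was 8, and 8 to 10 under the other thresholds: 10 at 0.1 TPM, at 10 expected counts or with TPM over protein-coding genes only, 9 at 1 FPKM, and 8 at the lower bound of the deposited interval or in either library alone. Levels over protein-coding genes only were 6.85-fold to 7.27-fold higher, since such genes held 12.2% and 16.4% of endogenous TPM. Posterior mean TPM was 0.998-fold to 1.39-fold the level given, the highest for Socs3. All 10 genes kept their rank with posterior mean TPM and 8 with FPKM. Leaving out a library kept 5 to 8 of 10 ranks: 8 without replicate 1 and 5 without replicate 2. None of the 10 was over 2-fold apart with DESeq2 size factors, spike-in totals, a pseudocount of 0.05 CPM, posterior mean counts or deposited TPM. Spike-in totals moved the median of all genes to 0.24 and deposited TPM to 0.51; relative to these, signs were those given, except Socs3 on deposited TPM (0.24). The leading transcript was the same in 9 of 10 with posterior shares, and has no value with 1 library left. Depth limits Socs3 and the rarer transcripts of Osmr, Il1rn and Stat3.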
